A study of Mus musculus with 6 samples.

Results

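Lymphocytes leave the blood, settle in follicles and return to the circulation by means of adhesion molecules and receptors for soluble guidance cues. Integrins, which are heterodimers of an alpha and a beta subunit, bind immunoglobulin-family ligands such as VCAM-1, ICAM-1, ICAM-2 and MAdCAM-1 or the extracellular matrix. Chemokine receptors and receptors for sphingosine 1-phosphate or oxysterols set where a B cell moves, and signal to the integrins. The 38 mouse genes described here encode these proteins and were chosen by name from a list out of 27179 gene identifiers in the count files. They comprised 12 integrin alpha subunits, 5 integrin beta subunits, 7 immunoglobulin-family adhesion molecules, 5 other adhesion glycoproteins and tetraspanins, 5 chemokine receptors and 4 receptors for lipid ligands. Of these, 28 had enough counts to be among the 12418 genes tested, and the other 10 were described by their counts alone.

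A20 is a B cell lymphoma line of BALB/c mice, and RNA was sequenced from 3 groups of 2 replicates. Besides wild-type A20 there were TETact-v3 cells that carried either a control sgRNA without a target or an sgRNA to the promoter of Cd4. In TETact-v3, dCas9 carries SunTag epitopes that recruit the catalytic domain of TET1, a 5-methylcytosine dioxygenase, while MS2 aptamers in the sgRNA recruit the p65-hsf1 activator. Both TETact-v3 groups had received all of these components by lentiviral transduction and had been enriched by cell sorting, and they were collected on day 7 after transduction with the sgRNA. Wild-type cells had received none of them, so that vectors, transduction, sorting and the TETact proteins cannot be told apart in a comparison with wild type.

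Libraries held between 23194920 and 121623410 counts, with the control sgRNA libraries the deepest, and mitochondrial genes took 2.65% to 2.69% of the counts in wild-type cells, 5.96% to 6.90% in Cd4 sgRNA cells and 6.63% to 11.5% in control sgRNA cells. Cd4 itself had 30959 and 40422 counts with its own sgRNA and no more than 127 counts in any other library. All 9 B cell markers reported were above the floor of 3 counts in all 6 libraries. Their summed level in CPM (counts per 1000000 counts of the scaled library) was 8821 to 8941 in wild-type, 5741 to 8638 in control sgRNA and 4959 to 5572 in Cd4 sgRNA cells. Most of this sum was Cd74, with means of 5497, 4769 and 3036 CPM in these groups. Other markers shifted to unlike extents, with means of 451, 236 and 225 CPM for Cd79a and 75.6, 60.7 and 69.8 CPM for Pax5. The T cell markers Cd3e and Cd8b1, the myeloid marker Cd14, the endothelial markers Kdr and Tie1 and the fibroblast marker Col1a2 had 0 counts in all libraries. The summed level of all 8 T cell markers was 0.775 to 0.934 CPM in wild-type, 1.23 to 2.02 in control sgRNA and 1.88 to 2.01 in Cd4 sgRNA cells, with Cd5 at 0.151 and 0.374, then 0.432 and 0.754, then 1.10 and 0.926 CPM. For the 6 myeloid markers the sums were 4.05 to 4.16, 1.46 to 5.44 and 2.20 to 2.87 CPM, most of it from Adgre1, which had 0.981 and 4.60 CPM in the control sgRNA libraries. The part of these markers in the members' values was not tested. A lower level in bulk RNA can come from fewer cells that express a gene or from less RNA per cell, and these cannot be told apart here.

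Levels were compared between genes as CPM per kilobase of gene length (RPKM). In wild-type A20, the members with the highest level per length were receptors of follicular B cells. Cxcr5, the receptor for the follicular chemokine CXCL13, had 95.1 ± 2.00 RPKM (SD, n = 2) and Cxcr4, the receptor for CXCL12, had 62.7 ± 2.31. They were followed by the subunits of the leukocyte integrin LFA-1 and by the common beta subunit, with 55.8 ± 1.37 RPKM for Itgb1, 37.7 ± 2.74 for Itgal and 34.9 ± 0.754 for Itgb2. The neighbours Itgal and Itgb2 in this order did not differ beyond their spread. S1pr2, a receptor for sphingosine 1-phosphate that holds germinal-centre B cells in place, stood at 29.8 ± 1.76 RPKM, ahead of S1pr1, the receptor that draws lymphocytes out of tissues, at 12.5 ± 0.485. In the TETact-v3 cells Cxcr5 remained the highest member, with 73.6 ± 17.3 RPKM in control sgRNA and 61.3 ± 0.0523 RPKM in Cd4 sgRNA cells, whereas Cxcr4 moved from rank 2 in wild type to rank 3 and rank 6.

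**Figure D1:**
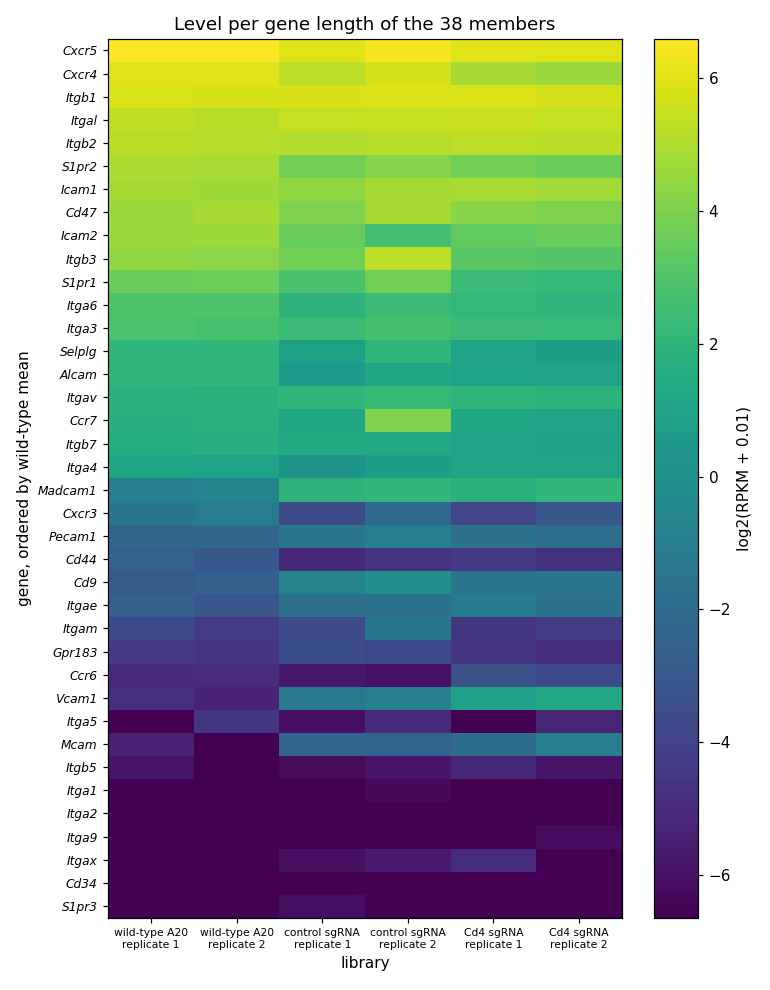
Level per gene length of the 38 members in each of the 6 libraries, as log2(RPKM + 0.01), with genes ordered by their mean in wild-type A20. Cxcr5 is at the top in all 3 groups, Madcam1, Vcam1, Mcam, Cd9 and Itgae are brighter in the TETact-v3 libraries than in wild type, and Ccr7 and Itgb3 stand out in control sgRNA replicate 2.

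The 10 members below the filter had at most 26 counts in any library. Itga2, a subunit of a collagen receptor, and Cd34, a sialomucin of progenitors and endothelium, had 0 counts in all 6 libraries, which at the floor of 3 counts allows levels of up to 0.0270 CPM in the deepest library and 0.140 CPM in the shallowest. Itga1, Itga9 and S1pr3 reached at most 2 counts. Itga5, the fibronectin receptor subunit, reached 7, and Itgax and Itgb5 reached 3 and 2. Ccr6, a receptor for CCL20, had 2 and 1 counts in wild type, 2 and 1 in control sgRNA and 6 and 6 in Cd4 sgRNA cells. Gpr183, the oxysterol receptor EBI2 that guides B cells to the outer follicle, had 5 and 2 counts in wild type, 26 and 16 in the deeper control sgRNA libraries and 3 and 3 in Cd4 sgRNA cells. No test was made for these genes.

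The comparison of control sgRNA with wild-type cells asks what the TETact-v3 system and its delivery change without a target. Here 5 members rose, namely Madcam1, Vcam1, Mcam, Cd9 and Itgae, against 14.5% of all tested genes that were called higher. Another 5 fell, namely Cd44, S1pr2, Alcam, Icam2 and Itga6, against 13.5% of all tested genes called lower. The remaining 18 of 28 did not pass an adjusted p-value of 0.05 in edgeR's quasi-likelihood test. Over the 28 members the median log2 fold change was -0.19, beside -0.0012 over all genes tested, and 12 members lay above 0. Libraries of the groups did not overlap for 8 members higher and 12 lower, beside 33.35% and 33.8% of all tested genes.

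Cd4 sgRNA cells were also set against wild-type cells. These values share the wild-type libraries with the first comparison and are therefore given side by side rather than counted together. Here 4 members rose, namely Vcam1, Madcam1, Mcam and Itgae, with 9.85% of all tested genes called higher. The 9 members that fell were S1pr2, Cxcr4, Itga6, Alcam, Cd44, Itgb7, Icam2, S1pr1 and Cxcr5, or 32.1% of the 28 tested, with 10.7% of all tested genes called lower. The median over the members was -0.62, beside 0.0045 over all genes tested. Libraries did not overlap for 9 members higher and 16 lower, beside 40.4% and 39.4% of all tested genes.

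Between Cd4 sgRNA and control sgRNA cells, which differ in the target of the sgRNA and whose libraries also enter the comparisons with wild type, 1 member rose. This was Vcam1, in a comparison in which 0.0242% of all tested genes were called higher. No member fell at the threshold of edgeR, with 0.0483% of all tested genes called lower. At an unadjusted p-value under 0.05 there were 3 members higher and 5 lower, or 28.6% of the 28 tested beside 24.9% of all tested genes. DESeq2 called 3 members lower, in a fit that called 7.06% of all tested genes lower, and voomLmFit called 0 members. The median over the members was -0.20, beside -0.0078 over all genes tested. Without overlap of the libraries, 5 members were higher and 11 lower, beside 29.5% and 30.2% of all tested genes.

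**Figure D2:**
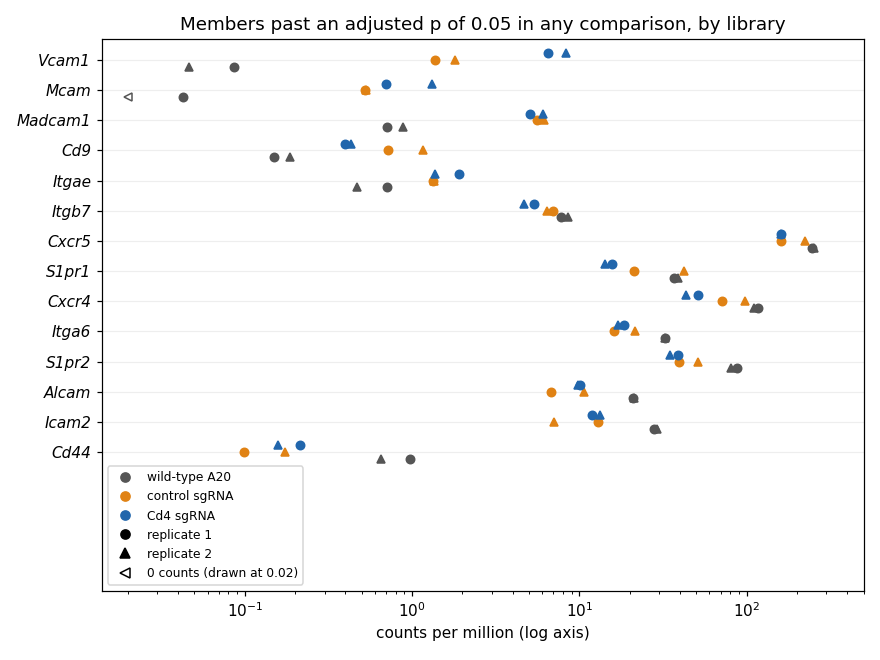
Level in CPM on a log axis in each library for the 14 members past an adjusted p of 0.05 in any comparison, with circles for replicate 1 and triangles for replicate 2. Vcam1, Mcam, Madcam1, Cd9 and Itgae lie to the right of wild type in both TETact-v3 groups, Cd44 and Icam2 lie to the left, and the single open symbol is Mcam with 0 counts in wild-type replicate 2, drawn at 0.02.

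Among the immunoglobulin-family adhesion molecules, all 7 were tested and the changes went both ways. Vcam1, the ligand of the integrins alpha4beta1 and alpha4beta7 on inflamed endothelium and on follicular dendritic cells, lies at chr3:116110020-116129688 (mm10, minus strand). Wild type had 4 and 1 counts of it, control sgRNA cells 152 and 147, and Cd4 sgRNA cells 213 and 370. In CPM these were 0.0861 and 0.0467, then 1.37 and 1.82, then 6.50 and 8.36. The 3 groups did not overlap, and Vcam1 was the sole member to pass between the sgRNAs, with a log2 fold change of 2.25 ± 0.21 (SE) and an adjusted p of 0.0204 for Cd4 sgRNA over control sgRNA in edgeR. Against wild type the adjusted p was 0.0031 for control sgRNA and 0.00060 for Cd4 sgRNA. Since wild type had few counts, ratios of summed counts, each divided by the summed scaled size of its libraries, are given with their 95% exact counting interval, which covers counting error only. They were 21.1 (8.96 to 65.6) for control sgRNA and 103 (43.8 to 318) for Cd4 sgRNA.

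The call of Vcam1 between the sgRNAs depended on the fit. It passed in 8 of 12 alternative fits, with adjusted p-values from 1.3e-09 to 0.324, and it did not pass in voomLmFit (0.0682), in the legacy quasi-likelihood fit (0.0525), with a crossed replicate block (0.0514) or with only the groups compared (0.324). It passed without either control sgRNA library but not without a wild-type or a Cd4 sgRNA library, where the adjusted p reached 0.584, while the fold change lay between 2.05 and 2.46 whichever library was left out. Exons of Vcam1 overlap those of the gene model Gm43109 over 61 bases, and no strand setting of the counting was given.

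Madcam1, the ligand of alpha4beta7 on mucosal endothelium, lies at chr10:79664559-79668542 (mm10, plus strand). It had 0.710 and 0.887 CPM in wild type, 5.56 and 6.18 in control sgRNA and 5.10 and 6.10 in Cd4 sgRNA cells. Both TETact-v3 groups were thus above wild type and overlapped each other. The log2 fold change was 2.92 ± 0.24 for control sgRNA (adjusted p = 0.00155) and 2.87 ± 0.25 for Cd4 sgRNA cells (adjusted p = 0.00229), and both passed in all 12 alternative fits. Between the sgRNAs it was -0.06 ± 0.17 (adjusted p = 0.833).

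The 250 bases before the start site of Madcam1, which rose in both TETact-v3 groups, are shown with those of Cd44 and S1pr2, which fell. Capitals mark CpG dinucleotides, the sites of DNA methylation, which was not measured in these libraries. The sequences are from RefSeq on GRCm38.p6, the mm10 build, written 5′ to 3′ along each gene, from chr10:79664309-79664558 on the plus strand and from chr2:102901666-102901915 and chr9:20976794-20977043 on the minus strand.
Madcam1: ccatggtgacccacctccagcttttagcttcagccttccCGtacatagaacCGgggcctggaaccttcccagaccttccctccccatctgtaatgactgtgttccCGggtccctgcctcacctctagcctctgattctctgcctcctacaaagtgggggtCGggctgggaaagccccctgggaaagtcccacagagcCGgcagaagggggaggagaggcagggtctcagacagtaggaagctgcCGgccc
Cd44: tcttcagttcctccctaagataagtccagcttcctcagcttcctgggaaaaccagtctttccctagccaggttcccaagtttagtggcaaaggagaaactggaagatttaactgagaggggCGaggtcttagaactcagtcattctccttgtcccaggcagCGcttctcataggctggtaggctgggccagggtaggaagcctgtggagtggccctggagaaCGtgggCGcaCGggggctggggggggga
S1pr2: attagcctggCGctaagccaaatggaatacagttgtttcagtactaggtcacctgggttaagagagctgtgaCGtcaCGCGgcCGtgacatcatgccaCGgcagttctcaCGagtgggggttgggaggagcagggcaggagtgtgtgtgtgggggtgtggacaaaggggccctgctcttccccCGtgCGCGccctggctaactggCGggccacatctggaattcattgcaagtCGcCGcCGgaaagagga

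Within these 250 bases Madcam1 had 6 CpG, Cd44 had 5 and S1pr2 had 14. With the first 50 bases after the start included, the counts were 8, 6 and 18, beside a median of 7 over all 32851 promoter windows and of 13 over the 29 windows that matched 26 of the 38 members. The Madcam1 window held matches on the reverse strand to both NF-kB motifs searched. The longer motif matched as ggaaagcccc from 83 bases and as ggaaagtccc from 70 bases before the start site, and the shorter motif, GGGNTTTCC, matched as ggaaagccc within the former. Of all windows, 1.63% held the longer motif, which has 10 bases, and 1.68% the shorter one on either strand. Among the 26 members with a window, Cd9 also held the longer motif and Itgb1, which passed in no comparison, the shorter one. The other members had no window and were not searched, with Vcam1, Icam2, Itga6, Itgae, S1pr1 and Cxcr5 among them. The heat shock unit GAANNTTC was present in the windows of Madcam1, Cxcr4 and Itgb5 and in 7.86% of all windows. A match describes these letters and is not evidence of binding.

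Mcam, the endothelial and melanoma adhesion molecule CD146 at chr9:44134658-44142727 (mm10, plus strand), had 2 and 0 counts in wild type, 58 and 43 in control sgRNA and 23 and 58 in Cd4 sgRNA cells. It was nearly unread in wild type and present at a low level in all 4 TETact-v3 libraries, at 0.522 and 0.531 CPM with control sgRNA and 0.702 and 1.31 CPM with Cd4 sgRNA. The adjusted p was 0.0154 for control sgRNA and 0.0084 for Cd4 sgRNA against wild type. The ratio of summed counts, scaled for library size, was 17.8 (4.82 to 149) for control sgRNA and 35.7 (9.56 to 300) for Cd4 sgRNA. Between the sgRNAs the log2 fold change of 0.98 ± 0.35 did not pass (adjusted p = 0.166).

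Vcam1, Madcam1 and Mcam are known from endothelium, so the endothelial markers are given beside them. Kdr and Tie1 were at 0 throughout, Tek had at most 4 counts, and Cdh5 lay between 0.284 and 0.654 CPM over the 6 libraries with its highest value in wild type. Egfl7 moved with the groups, from 0.981 and 1.44 CPM in wild type to 8.23 and 10.4 in control sgRNA and 11.6 and 12.5 in Cd4 sgRNA cells, and it made up most of the summed level of the 5 endothelial markers, which was 1.64 to 1.83, 8.61 to 10.7 and 12.0 to 12.9 CPM in these groups. Of the 5 fibroblast markers, Pdgfrb had 1.03 and 1.12 CPM in wild type and 5.06 and 9.77 in control sgRNA cells but stood at 1.22 and 1.25 in Cd4 sgRNA cells. The part of these genes in the values of Vcam1, Madcam1 and Mcam was not tested.

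Alcam and Icam2 fell in both TETact-v3 groups. Alcam, the ligand of CD6, had 20.9 and 21.2 CPM in wild type, 6.79 and 10.7 in control sgRNA and 10.1 and 9.76 in Cd4 sgRNA cells. Icam2, a ligand of LFA-1, had 27.8 and 29.1 CPM in wild type, 12.9 and 7.11 in control sgRNA and 11.8 and 13.3 in Cd4 sgRNA cells. All 4 TETact-v3 libraries were below both wild-type libraries for both genes. Icam2 was 2.82-fold lower with control sgRNA (SE 0.27 on the log2 scale, adjusted p = 0.0120) and fell by 1.17 ± 0.28 on the log2 scale with Cd4 sgRNA (adjusted p = 0.0333). Alcam fell by 1.27 ± 0.22 (adjusted p = 0.0103) and by 1.08 ± 0.23 (adjusted p = 0.0244).

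Icam1, the other ligand of LFA-1 in the list, showed no such shift, with 69.9 and 67.2 CPM in wild type, 52.6 and 71.0 in control sgRNA and 72.5 and 69.1 in Cd4 sgRNA cells. Its log2 fold changes were -0.15 ± 0.15 (adjusted p = 0.469) and 0.05 ± 0.15 (adjusted p = 0.848) against wild type. Pecam1, which mediates homophilic contacts of leukocytes and endothelium, had 0.689 and 0.701 CPM in wild type and 1.19 and 1.72 in control sgRNA cells without passing the test (log2 fold change 1.04 ± 0.33, adjusted p = 0.0615). In Cd4 sgRNA cells it had 0.977 and 0.836 CPM.

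**Figure D3:**
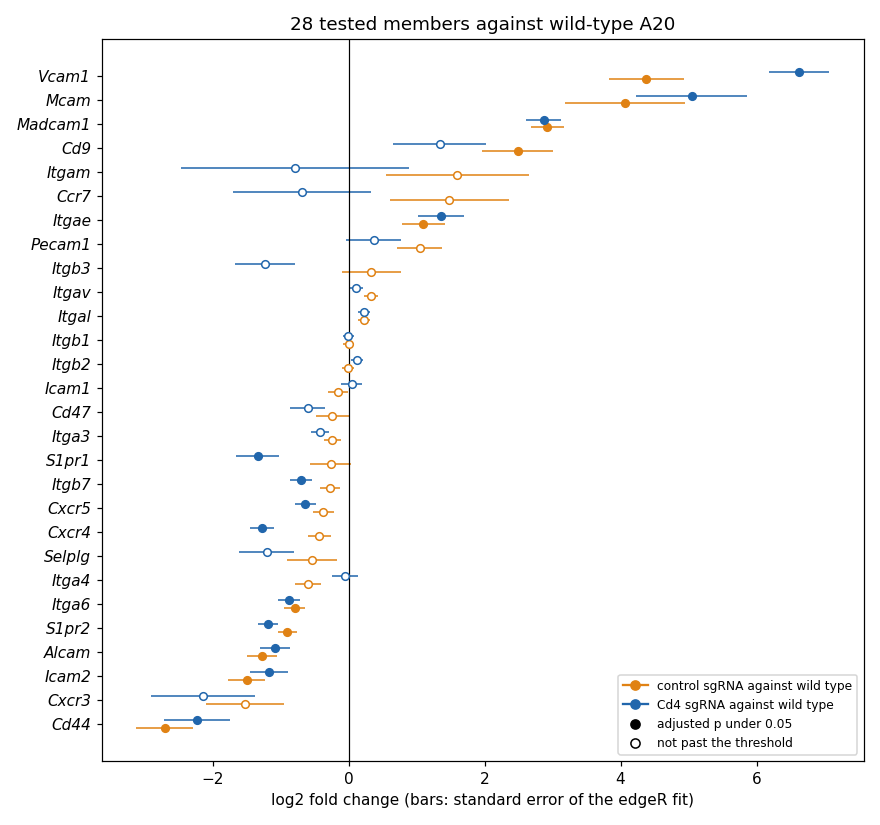
Log2 fold change of the 28 tested members against wild-type A20, for control sgRNA (orange) and Cd4 sgRNA (blue), with bars for the standard error of the edgeR fit and filled circles for an adjusted p under 0.05. The orange points run from Cd44 at -2.70 to Vcam1 at 4.38, and Itgam, Ccr7 and Itgb3 have wide bars and opposite signs in the 2 comparisons without passing the test in either.

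Of the integrin subunits that pair with these ligands, Itgb7 passed as lower in Cd4 sgRNA cells in the edgeR fit over all 6 libraries. Itgb1, Itgb2, Itgal and Itga4 passed in no comparison of that fit. Itgb1, the common beta1 subunit, had 238 and 230 CPM in wild type, 231 and 237 in control sgRNA and 238 and 228 in Cd4 sgRNA cells. Its log2 fold changes were 0.0017 ± 0.081 for control sgRNA and -0.0060 ± 0.081 for Cd4 sgRNA against wild type, with adjusted p-values of 0.989 and 0.964. For Itgb2, the beta subunit of LFA-1, the values were 102 and 98.4, then 94.8 and 104, then 110 and 109 CPM, with log2 fold changes of -0.0069 ± 0.086 (adjusted p = 0.959) and 0.13 ± 0.087 (adjusted p = 0.329). Both beta subunits thus stayed within a narrow range over the 3 groups, and neither passed in the fit over all 6 libraries. Itgb2 passed as higher in Cd4 sgRNA cells with only the groups compared (adjusted p = 0.0461), where 31.2% of all tested genes were called higher.

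Itgal, the alpha subunit of LFA-1, had 207 and 187 CPM in wild type, 229 and 231 in control sgRNA and 239 and 223 in Cd4 sgRNA cells. All 4 TETact-v3 libraries lay above wild type, by log2 fold changes of 0.22 ± 0.091 (adjusted p = 0.115) and 0.23 ± 0.092 (adjusted p = 0.124) that did not pass. Itgal passed as higher in Cd4 sgRNA cells with only the groups compared (adjusted p = 0.00185), where 31.2% of all tested genes were called higher. Of all tested genes, 33.35% in control sgRNA and 40.4% in Cd4 sgRNA cells were likewise above wild type without overlap. Itga4, the subunit that binds VCAM-1 and MAdCAM-1, had 22.1 and 19.4 CPM in wild type, 11.4 and 16.2 in control sgRNA and 21.1 and 19.2 in Cd4 sgRNA cells. Its log2 fold change was -0.60 ± 0.19 for control sgRNA (adjusted p = 0.0590) and -0.048 ± 0.19 for Cd4 sgRNA against wild type (adjusted p = 0.875), and 0.55 ± 0.19 between the sgRNAs (adjusted p = 0.166). The control sgRNA libraries were the lowest for this gene, although no comparison passed in the edgeR fit over all 6 libraries. Control sgRNA passed as lower than wild type in 3 of 12 alternative fits. DESeq2 was among them (adjusted p = 0.0184) and called 15.7% of all tested genes lower. Exons of Itga4 overlap those of Cerkl over up to 905 bases, and counts from these bases cannot be told apart without strand.

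Itgb7, which pairs with Itga4 as the MAdCAM-1 receptor and with Itgae as the E-cadherin receptor, had 7.79 and 8.55 CPM in wild type, 6.96 and 6.44 in control sgRNA and 5.34 and 4.68 in Cd4 sgRNA cells. The groups did not overlap and Cd4 sgRNA was lowest. It fell by 0.70 ± 0.16 in Cd4 sgRNA cells (adjusted p = 0.0297), while the value for control sgRNA was -0.27 ± 0.15 (adjusted p = 0.200) and that between the sgRNAs -0.43 ± 0.15 (adjusted p = 0.170). Its partner Itgae went the other way, from 0.710 and 0.467 CPM in wild type to 1.34 and 1.36 in control sgRNA and 1.92 and 1.38 in Cd4 sgRNA cells. The rise of Itgae was 1.10 ± 0.32 (adjusted p = 0.0469) with control sgRNA, where it passed in 7 of 12 alternative fits, and 1.36 ± 0.34 (adjusted p = 0.0384) with Cd4 sgRNA, where it passed in 11. Itgae remained below Itgb7 per length in all groups, at 0.295 ± 0.0029 against 2.50 ± 0.14 RPKM in control sgRNA cells.

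Itga6, a laminin receptor subunit, was the alpha subunit that fell. It had 32.5 and 32.7 CPM in wild type, 16.1 and 21.6 in control sgRNA and 18.6 and 17.0 in Cd4 sgRNA cells. The decreases of 0.79 ± 0.16 (adjusted p = 0.0158) and 0.88 ± 0.16 (adjusted p = 0.0178) passed in all 12 alternative fits. Itga3, another laminin receptor subunit, lay between 24.7 and 34.4 CPM with wild type highest, at -0.24 ± 0.13 (adjusted p = 0.210) and -0.43 ± 0.13 (adjusted p = 0.0683). It passed as lower in Cd4 sgRNA cells with only the groups compared, where 30.5% of all tested genes were called lower. Itgav, the alpha subunit of vitronectin receptors, lay between 24.5 and 33.2 CPM, at 0.33 ± 0.10 in control sgRNA cells (adjusted p = 0.0594).

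The other subunits could not be judged for control sgRNA because its libraries differed. Itgb3, the partner of Itgav, had 124 and 114 CPM in wild type, 78.8 and 221 in control sgRNA and 54.0 and 47.5 in Cd4 sgRNA cells. Control sgRNA replicate 1 was thus below and replicate 2 above wild type. Cd4 sgRNA cells were lowest, at -1.23 ± 0.44 against wild type (adjusted p = 0.0976), in a fit whose spread is pooled over all 6 libraries. With only the groups compared, Itgb3 passed as lower in Cd4 sgRNA cells (adjusted p = 2.7e-11), where 30.5% of all tested genes were called lower. The value for control sgRNA was 0.34 ± 0.43 (adjusted p = 0.588). It was -0.59 without control sgRNA replicate 2 and 0.92 without replicate 1, so that its direction depended on the library left out. Itgam, the alpha subunit of the myeloid integrin Mac-1, had 16 and 4 counts in wild type, 37 and 128 in control sgRNA and 5 and 8 in Cd4 sgRNA cells, and passed in no comparison.

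Among the other adhesion glycoproteins, Cd44 fell and Cd9 rose. Cd44, the hyaluronan receptor, had 45 and 14 counts in wild type, 11 and 14 in the deeper control sgRNA libraries and 7 and 7 in Cd4 sgRNA cells, or 0.969 and 0.654, then 0.0990 and 0.173, then 0.214 and 0.158 CPM. It was low in A20 and lower in all 4 TETact-v3 libraries, by 2.70 ± 0.42 with control sgRNA (adjusted p = 0.0078) and by 2.23 ± 0.48 with Cd4 sgRNA (adjusted p = 0.0262). Cd9, a tetraspanin of marginal zone B cells and plasma cells, had 7 and 4 counts in wild type, 80 and 94 in control sgRNA and 13 and 19 in Cd4 sgRNA cells. It rose by 2.48 ± 0.52 with control sgRNA (adjusted p = 0.0183), a ratio of summed counts, scaled for library size, of 5.59 (3.05 to 11.4). This call of Cd9 was lost with only the groups compared (adjusted p = 0.0510). In Cd4 sgRNA cells the log2 fold change was 1.34 ± 0.68 (adjusted p = 0.203). Cd9 passed as higher there with only the groups compared (adjusted p = 0.0372), where 31.2% of all tested genes were called higher. Between the sgRNAs the log2 fold change was -1.14 ± 0.40 (adjusted p = 0.168), so that a difference between the sgRNAs was not shown.

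Cd9 lies 572 kb from Cd4 on chromosome 6, at chr6:125460266-125494760 (mm10, minus strand). Its exons overlap Gm26728 over 218 bases. Selplg, which encodes the selectin ligand PSGL-1, had 11.1 and 11.1 CPM in wild type, 4.81 and 10.7 in control sgRNA and 5.16 and 4.50 in Cd4 sgRNA cells. Cd47, the ligand of SIRP-alpha, had 47.1 and 54.2, then 31.8 and 54.2, then 35.8 and 30.9 CPM. For both genes control sgRNA replicate 2 was close to wild type and the other 3 TETact-v3 libraries were lower. Neither passed in the fit over all 6 libraries, at -1.21 ± 0.40 (adjusted p = 0.0828) and -0.60 ± 0.26 (adjusted p = 0.142) for Cd4 sgRNA against wild type. With only the groups compared, both passed as lower in Cd4 sgRNA cells, where 30.5% of all tested genes were called lower.

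The homing receptors moved in 1 direction where they passed the test. S1pr2, at chr9:20965952-20976793 (mm10, minus strand), had 87.5 and 80.5 CPM in wild type, 39.3 and 50.9 in control sgRNA and 38.7 and 35.0 in Cd4 sgRNA cells. All 4 TETact-v3 libraries were below wild type, and the decreases of 0.90 ± 0.14 (adjusted p = 0.0087) and 1.19 ± 0.15 (adjusted p = 0.0063) passed in all 12 alternative fits. Its neighbour Icam1, which starts 39.1 kb away, did not pass. S1pr1 had 36.8 and 38.9 CPM in wild type, 21.2 and 42.0 in control sgRNA and 15.7 and 14.3 in Cd4 sgRNA cells. It fell by 1.34 ± 0.32 in Cd4 sgRNA cells (adjusted p = 0.0343), while the control sgRNA libraries lay on both sides of wild type (-0.26 ± 0.30, adjusted p = 0.542). The call of S1pr1 was lost in voomLmFit, the method of the study (adjusted p = 0.0608). S1pr1 lies 395 kb from Vcam1, which moved in the opposite direction in the same cells.

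Of the chemokine receptors, Cxcr4 and Cxcr5 fell in Cd4 sgRNA cells. Cxcr4, at chr1:128588199-128592299 (mm10, minus strand), had 117 and 111 CPM in wild type, 71.0 and 98.2 in control sgRNA and 51.1 and 43.4 in Cd4 sgRNA cells, so that the 3 groups did not overlap. It fell by 1.27 ± 0.17 in Cd4 sgRNA cells (adjusted p = 0.0082). The value for control sgRNA was -0.43 ± 0.17 (adjusted p = 0.105) and that between the sgRNAs -0.84 ± 0.17 (adjusted p = 0.113), where DESeq2 called it together with S1pr1 and Itgb3. Cxcr5 had 245 and 252 CPM in wild type, 161 and 224 in control sgRNA and 160 and 160 in Cd4 sgRNA cells. It fell by 0.63 ± 0.16 in Cd4 sgRNA cells (adjusted p = 0.0387), a call lost when libraries were scaled by size only (adjusted p = 0.0501), and was at -0.37 ± 0.16 in control sgRNA cells (adjusted p = 0.127). Cxcr5 lies 369 kb from Mcam, and its exons overlap those of Bcl9l over 110 bases.

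Ccr7, the receptor for CCL19 and CCL21 in T cell zones, had 6.33 and 6.72 CPM in wild type, 4.35 and 32.4 in control sgRNA and 4.27 and 3.86 in Cd4 sgRNA cells. Its high mean in control sgRNA cells rested on replicate 2. The log2 fold change against wild type was 1.48 ± 0.88 (adjusted p = 0.246). It was -0.57 without that library and 2.34 without control sgRNA replicate 1, so that its direction depended on the library left out. Cxcr3, the receptor for CXCL9, CXCL10 and CXCL11, had 27 and 16 counts in wild type, 13 and 29 in control sgRNA and 3 and 8 in Cd4 sgRNA cells. In CPM every TETact-v3 library was below wild type, without passing the test (-1.52 ± 0.57, adjusted p = 0.0950, and -2.14 ± 0.76, adjusted p = 0.0949). Of all tested genes, 33.8% in control sgRNA and 39.4% in Cd4 sgRNA cells were likewise below wild type without overlap. With only the groups compared, Ccr7 and Cxcr3 passed as lower in Cd4 sgRNA cells, where 30.5% of all tested genes were called lower.

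The difference between the libraries of a group touched several of these members. In wild type and in Cd4 sgRNA cells, 0 members differed by more than 2-fold between replicates, whereas in control sgRNA cells 5 of 28 were more than 2-fold higher in replicate 2, namely Ccr7, Itgam, Cxcr3, Itgb3 and Selplg. Of all tested genes 5.71% were more than 2-fold higher in that library. The log2 ratio of replicate 2 to replicate 1 had a median of 0.45 over the members in control sgRNA cells, beside 0.0069 in wild type and -0.095 in Cd4 sgRNA cells. The same library had the higher share of mitochondrial counts, 11.5%, and the part of this in the members' values was not tested.

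**Figure D4:**
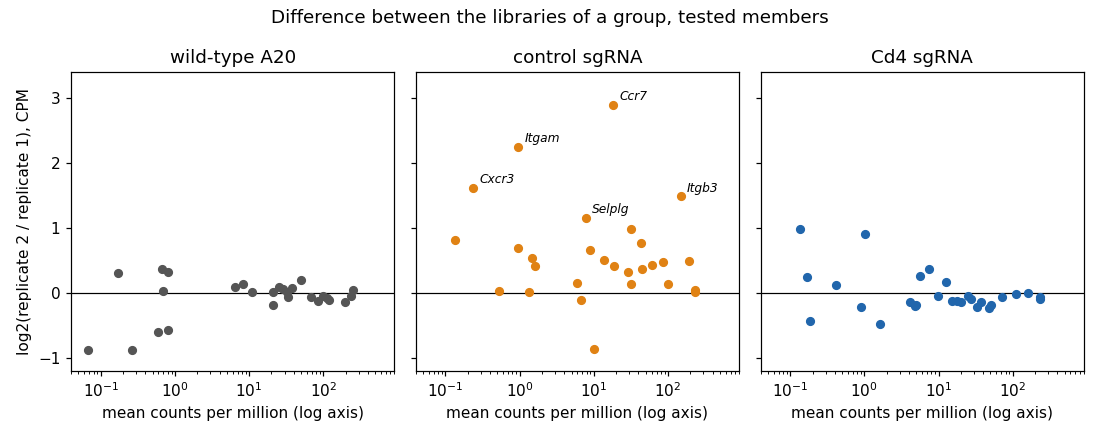
Log2 ratio of replicate 2 to replicate 1 in CPM against the mean CPM (log axis) for the tested members in each group, each point being 1 gene. Most points lie near 0 in wild type and Cd4 sgRNA cells above 1 CPM, with Mcam at 0.90 and Itgae at -0.48 in Cd4 sgRNA cells. In control sgRNA cells most lie above 0, and Ccr7, Itgam, Cxcr3, Itgb3 and Selplg are labelled as more than 2-fold higher in replicate 2.

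Most calls against wild type, over the members as over all tested genes, needed both wild-type libraries. Calls of members lower in Cd4 sgRNA cells likewise needed both Cd4 sgRNA libraries. Calls over all tested genes fell in those fits as well, so that the loss was not particular to the members. Leaving out a control sgRNA library raised the counts over members and over all genes alike. For control sgRNA against wild type, 11 members were higher and 8 lower without replicate 1, where 33.0% and 31.2% of all tested genes were called, and 8 and 16 without replicate 2, where 30.3% and 29.5% were. The 24 called fold changes, from comparisons that share libraries, kept their direction in all of these fits, which reuse the same libraries.

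Genes that act with the members were described from lists of their pathway. The counts of these lists stand beside 14.5% of all tested genes called higher and 13.5% lower in control sgRNA cells. For Cd4 sgRNA cells these shares were 9.85% and 10.7%, both against wild type. Of 36 integrin activators and adhesion-complex adaptors, 30 were tested, and in control sgRNA cells 6 rose and 5 fell against wild type. Pxn, the focal adhesion scaffold paxillin, rose by 1.42 ± 0.10 (adjusted p = 0.0012), Vcl, which encodes vinculin, by 0.97 ± 0.097 (adjusted p = 0.0025), and Bcar1, the adaptor p130Cas, by 0.76 ± 0.085 (adjusted p = 0.0031). Rasgrp2, the exchange factor that activates Rap1 upstream of integrins, fell by 1.67 ± 0.11 (adjusted p = 0.00082), Parvg by 0.78 ± 0.13 (adjusted p = 0.0101) and Rassf5, the Rap1 effector RAPL, by 0.51 ± 0.095 (adjusted p = 0.0131). In Cd4 sgRNA cells 5 rose and 6 fell, again with Pxn (1.55 ± 0.11) and Vcl (0.88 ± 0.099) among those higher and Rasgrp2 (fell by 1.62 ± 0.11), Parvg (fell by 1.03 ± 0.13) and Rassf5 (fell by 0.63 ± 0.097) among those lower. The medians over the tested genes of the list were -0.11 and -0.12, and the list thus held changes in both directions.

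In the list of homing receptor signalling and desensitisation, 23 of 25 genes were tested, with 3 higher and 7 lower in control sgRNA cells and 3 higher and 5 lower in Cd4 sgRNA cells. Arrb1, which encodes the beta-arrestin that desensitises such receptors, had 1.33 and 1.54 CPM in wild type, 14.7 and 21.7 in control sgRNA and 9.52 and 9.26 in Cd4 sgRNA cells. It rose by 3.68 ± 0.28 (adjusted p = 0.0014) and by 2.74 ± 0.30 (adjusted p = 0.0045). Gna13, the G protein subunit through which S1PR2 signals, rose by 0.61 ± 0.092 (adjusted p = 0.0070) and 0.52 ± 0.092 (adjusted p = 0.0153), and Dock2, a Rac exchange factor of lymphocyte migration, by 0.62 ± 0.087 (adjusted p = 0.0057) and 0.47 ± 0.087 (adjusted p = 0.0170). Among those lower were Foxo1, a transcription factor of lymphocyte homing genes, at -0.80 ± 0.11 in control sgRNA cells (adjusted p = 0.0061) and -1.0 ± 0.11 in Cd4 sgRNA cells (adjusted p = 0.0051), and the regulators of G protein signalling Rgs2, at -1.71 ± 0.26 and -1.61 ± 0.28, Rgs14, at -1.21 ± 0.15 in control sgRNA cells, and Rgs13, at -1.53 ± 0.20 in Cd4 sgRNA cells.

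Fewer members of the other lists were expressed. Of 16 selectins and enzymes of selectin ligands, 9 were tested, with 2 higher (St3gal6 and B4galt1) and 3 lower (C1galt1, Tpst1 and Tpst2) in control sgRNA cells and 1 higher (St3gal6) and 3 lower (C1galt1, Tpst1 and Tpst2 again) in Cd4 sgRNA cells. C1galt1, which builds the core of O-glycans, and the tyrosine sulfotransferases Tpst1 and Tpst2 are needed for functional PSGL-1, the product of Selplg. Their values in control sgRNA cells were -0.56 ± 0.10, -0.27 ± 0.080 and -0.68 ± 0.16. Of 18 ligands and ligand enzymes of the homing receptors, 7 were tested, and in control sgRNA cells the CXCR3 ligands Cxcl11 (1.41 ± 0.39, adjusted p = 0.0421) and Cxcl10 (0.54 ± 0.16, adjusted p = 0.0462) rose while the sphingosine kinase Sphk2 fell by 0.54 ± 0.13 (adjusted p = 0.0282), with 0 of 7 called in Cd4 sgRNA cells.

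Of 9 other integrin subunits 4 were tested, and Itgb4, the partner of Itga6 in hemidesmosomes, rose by 1.27 ± 0.31 in control sgRNA cells (adjusted p = 0.0282). Of 26 other immunoglobulin-family and tetraspanin adhesion molecules 14 were tested. Bcam (2.47 ± 0.44) and Epcam (0.91 ± 0.19) rose in control sgRNA cells, where 5 fell, including Cd82 (-0.75 ± 0.098), Nectin1 (-3.38 ± 0.62, with 23 and 8 counts in wild type and 2 and 6 in control sgRNA) and Cd81 (-0.69 ± 0.13). In Cd4 sgRNA cells 0 rose and 4 fell, with Cd81 at -1.27 ± 0.13, Cd53 at -0.86 ± 0.17 and Cd2 at -1.57 ± 0.31. Of 14 other homing receptors 4 were tested and 0 passed against wild type in either group. Of 17 extracellular ligands of integrins and CD44, 6 were tested, and the laminin subunits Lamc1 (1.59 ± 0.10 and 1.25 ± 0.10) and Lamb1 (0.62 ± 0.17 and 0.76 ± 0.18) rose in both TETact-v3 groups while Lama5 fell by 1.41 ± 0.36 in control sgRNA cells. In none of these 8 lists did edgeR call a gene between Cd4 sgRNA and control sgRNA cells. Of all tested genes it called 0.0242% higher and 0.0483% lower there, so that a list of this size is not set apart by 0 calls.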

How the data were processed

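Counts per Entrez gene for 6 A20 libraries were used as deposited by the authors. Reads were paired-end and of 66 bp, the aligner was Rsubread with mm10 as the genome, and counting was by featureCounts with the RefSeq genes built into Rsubread. The counts are raw whole numbers, and the gene length deposited beside them gave RPKM. The strand setting is not given in the sources used here. A table of the whole series was not used.

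Genes were removed that had no symbol or a shared one, were of type other, or were mitochondrial or ribosomal RNA genes (25227 of 27179 identifiers kept), and filterByExpr left 12418. Libraries were scaled by TMM, and CPM and RPKM refer to these scaled sizes. edgeR 4.0.16 (glmQLFit without legacy estimation, robust, glmQLFTest) was fitted with 1 term per group over all 6 libraries in R 4.3.3, two-sided, with Benjamini-Hochberg adjustment over all genes at 0.05. Standard errors follow from the log2 fold change and its F statistic (their ratio after taking the root of F). The study's voomLmFit (limma 3.58.1) and DESeq2 1.42.0 were alternatives, as were RLE factors, library size only, other filters, only the groups compared, a replicate block, thinned control sgRNA counts and each library left out. The legacy quasi-likelihood fit and a crossed block were chosen after seeing the data. The test was run on simulated counts with known changes. The methods of the study name 2 independently repeated samples per group, and the p-values measure the spread between these samples. This spread is estimated per gene over all 6 libraries together. A wide spread in 1 group thus also enters the comparison of the other groups.

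The members and lists were chosen with earlier results of these data known. All 38 members are named, with full values for those past an adjusted p of 0.05 in any comparison and for their partners among the members, and up to 3 genes per list and direction with the smallest p-value. Ranges for the other members were given from the same fit. Positions are those of RefSeq genes on GRCm38.p6, and exon overlaps those of GENCODE M21. Motifs were searched on both strands of RefSeq promoter windows of 250 bases before to 50 after the start site. The values of 1 B cell marker are not reported here.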

Additional observations from a re-analysis of the deposited data

How the results depend on the processing

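The 24 member calls come from 14 members in comparisons that share libraries, so that they are not independent. Of these calls, 18 were made in every alternative fit that kept all libraries and could be run, and all kept their direction. The other 6 were Vcam1 between the sgRNAs, Itgae in both groups, Cd9 in control sgRNA and S1pr1 and Cxcr5 in Cd4 sgRNA against wild type. Members higher in control sgRNA against wild type numbered 5, beside 14.5% of all tested genes. They numbered 2 with a stricter filter of 1 CPM, which left fewer members tested, beside 15.6% of all tested genes. They numbered 3 with only the groups compared, beside 6.62%. Against wild type, Cd4 sgRNA had 7 higher and 15 lower with only the groups compared, a fit that called 31.2% and 30.5% of all tested genes. Between the sgRNAs, members higher numbered 0 with voomLmFit, with only the groups compared and with the legacy fit. Of all tested genes these fits called 0.0081%, 0.0080% and 0.0161% higher. Members lower numbered 3 with DESeq2, which called 7.06% of all tested genes lower. The causes of the latter shifts were not tested. With 1 library left out, where the lone library of a group is assumed to vary like the others, the counts of members higher and lower ranged from 0 to 11 and from 0 to 16 for control sgRNA against wild type, from 1 to 7 and from 0 to 15 for Cd4 sgRNA against wild type, and from 0 to 6 and from 0 to 15 between the sgRNAs.

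Replicate numbers did not pair the libraries, since the deviations of same-numbered libraries correlated at 0.0138, -0.0352 and -0.137 over genes. With the replicate number as a block, 4 members were higher and 6 lower for control sgRNA, beside 12.5% and 11.4% of all tested genes. For Cd4 sgRNA against wild type 4 and 10 were called, beside 7.80% and 8.60%. Between the sgRNAs 1 and 0 were called, beside 0.0161% and 0.0403%. Crossing the control sgRNA numbers gave 7 and 7, 4 and 9, and 0 and 0.

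Changes of sign were confined, among the fits run, to fold changes that had not passed the test. They were Itgal between the sgRNAs with the stricter filter (-0.0043), Itgb1 in control sgRNA without the annotation filter (-0.0059) and in Cd4 sgRNA against wild type by library size only (0.035), and Itgb2 in control sgRNA by library size only (0.036) and with thinned counts (0.00017). With 1 library left out, the log2 fold change of control sgRNA over wild type ranged from -0.57 to 2.34 for Ccr7, -0.66 to 0.13 for Cd47, -0.38 to 0.070 for Icam1, -0.015 to 0.052 for Itgb1, -0.075 to 0.082 for Itgb2, -0.59 to 0.92 for Itgb3 and -0.83 to 0.18 for S1pr1. That of Cd4 sgRNA over wild type ranged from -0.11 to 0.084 for Itga4 and -0.035 to 0.046 for Itgb1. Between the sgRNAs it ranged from -0.10 to 0.55 for Alcam, -0.70 to 0.064 for Cd47, -1.31 to 0.28 for Cxcr3, -0.026 to 0.84 for Icam2, -0.28 to 0.13 for Itga6, -0.039 to 0.056 for Itgal, -0.035 to 0.026 for Itgb1 and -0.20 to 0.061 for Madcam1. Vcam1, Mcam and Cd9, with at most 7 counts in a wild-type library, are limited by depth in wild type.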
